A study of Mus musculus with 8 samples.

Results

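The genes described here are 10 components of the p53 pathway: Trp53, which encodes p53 itself, its regulators Mdm2 and Mdm4, and the target genes Cdkn1a, Bbc3, Bax, Ccng1, Sesn1, Trp53inp1 and Phlda3. They were found by gene symbol, and all 10 were present among the 32285 genes of the count tables. p53 is a transcription factor that cells keep at a low protein level, mainly because the ubiquitin ligase Mdm2 marks it for destruction and the related protein Mdm4 holds it inactive. When DNA damage or another stress releases this brake, p53 switches on genes that stop the cell cycle, trigger apoptosis or dampen growth signals, and also Mdm2, which closes a feedback loop. CHD8, a chromatin remodeller, is a reported repressor of p53, which is why these genes were compared between wild type mice and mice with 1 altered copy of Chd8.

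Nuclei came from the cerebral cortex of 8 C57BL/6J mice at postnatal day 25. Of these, 4 were WT and 4 were Chd8+/- (Chd8het), each genotype comprised 2 males and 2 females, and every animal gave 1 library. Per the labels' protocols, the medial cortex had been removed, the tissue was frozen, and the mice were 4 pairs matched for litter and sex, although which libraries form a pair is not stated. The sources used here do not describe the Chd8 allele. All libraries numbered replicate 1 carried single indexes and all numbered replicate 2 dual indexes, which spreads index type evenly over the genotypes.

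The 8 libraries held 69503598 to 98132783 unique molecular identifiers (UMIs, counts of captured RNA molecules). Of 97772 barcodes, 77739 nuclei were kept, 7468 to 10988 per library, and any pair of libraries shared 18 to 36 of their kept barcodes. A nucleus entered 1 of 13 cell types, here called gates, when a fixed marker list scored clearly above all others, which placed 50397 nuclei (64.8%) and left the rest for the sums over all kept nuclei. The gates were excitatory neurons of layers 2/3 to 6 (L2/3 IT, L4/5 IT and L5/6 IT, which are intratelencephalic, L5 ET extratelencephalic, L5/6 NP near-projecting and L6 CT corticothalamic), interneurons of medial (MGE) or caudal (CGE) ganglionic eminence origin, astrocytes, oligodendrocyte precursors (OPC), oligodendrocytes, microglia and vascular cells. A gate is a range of a score, not a proven type: between 6.51% (oligodendrocytes) and 44.5% (L5/6 NP) of its nuclei lay within 0.05 of the cut, and the median score for the next broad class was 0.120 to 0.148, against 0.399 to 0.822 for its own. All 6 microglia markers were at least 16.2-fold higher in the microglia gate than in other nuclei, but none was among its 10 leading genes, and its nuclei were shallow (median 1457 UMIs). The L5 ET markers were only 1.87- to 6.9-fold higher in their gate, and 1 of the 5 was among its 10 leading genes. Levels are counts per 1000000 UMIs (CPM). Gate levels were scaled over gates and libraries together by the trimmed mean of M values (TMM), and levels in all kept nuclei over their 8 libraries alone. Log2 changes between genotypes were fitted with TMM within each gate or sum, so they can depart from the CPM beside them. Levels are compared within a gene across gates, not between genes, since the genes differ in length.

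Promoter sequences show what several of these genes share before any count is considered. RefSeq (GRCm38.p6) gave 14 start sites for 9 of the 10 genes, and the 250 bases before each were searched on both strands for the p53 half-site consensus, a 10-base motif that is its own reverse complement and that p53 binds in tandem pairs. A match stood before 1 start site each of Trp53, Mdm2, Cdkn1a, Bax, Ccng1 and Sesn1, which is 6 of 14 windows, against 7.13% of all 32851 windows of that length. The genes were chosen as p53 pathway members, so these shares are not an independent test of p53 binding. The windows shown hold matches to the half-site, not to the tandem pair, with matches in capitals, 5′ to 3′ on the gene's strand.
Cdkn1a (chr17:29090876-29090945, plus strand): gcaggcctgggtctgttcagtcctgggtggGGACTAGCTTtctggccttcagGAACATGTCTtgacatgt
Mdm2 (chr10:117710905-117710974, minus strand): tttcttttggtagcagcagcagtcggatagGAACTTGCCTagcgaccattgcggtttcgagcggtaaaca
Trp53 (chr11:69580254-69580323, plus strand): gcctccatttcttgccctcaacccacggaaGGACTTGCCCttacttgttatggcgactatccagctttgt
Ccng1 (chr11:40755432-40755501, minus strand): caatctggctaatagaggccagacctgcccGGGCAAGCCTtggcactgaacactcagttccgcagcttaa
Bax (chr7:45467060-45467129, minus strand): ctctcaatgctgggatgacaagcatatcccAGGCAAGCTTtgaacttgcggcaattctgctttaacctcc
Sesn1 (chr10:41887236-41887305, plus strand): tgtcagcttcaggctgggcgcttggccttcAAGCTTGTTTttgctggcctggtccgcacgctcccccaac
Cdkn1a was the one gene of the set with 2 matches in a window, the first beginning 73 bases before a start site. Its other start site had 0 matches. A match is a description of letters, and no match in a window says nothing of p53 binding elsewhere.

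Levels differed between many gates. Over all 78 pairs of gates for each gene, 286 of 780 comparisons (36.7%) differed by an exact sign-flip permutation test over 8 libraries (two-sided, Benjamini-Hochberg (BH) adjusted p under 0.05 over all genes and pairs). The same test called 37% of the 1680588 comparisons of all 21546 genes, so with TMM scaling the share is near the background. With plain totals it was 46.3% for the 10 genes against 36.6% for all genes, so how they stand to the background depends on the scaling. Sesn1 (48 of 78 pairs), Trp53inp1 (47) and Trp53 (42) differed in the most, and Bbc3 (6) in the fewest. These counts are not matched for UMIs, so few pairs do not mean an even level. Sesn1 gave 54821 UMIs and spanned 1.94-fold from its lowest to its highest gate, while Bbc3 gave 1217 and spanned 3.03-fold. The smallest p the permutation test can give with 8 libraries is 0.0078, which became 0.0254 after the BH adjustment. Neighbours in the order of levels were mostly not resolved. Of 120 neighbour comparisons 6 passed: the first gate over the next for Mdm2, Cdkn1a, Trp53inp1 and Phlda3, and 2 further steps for Trp53inp1. None of the 6 passed when adjustment was over the 120 neighbour tests only (adjusted p of 0.1875 or more, same exact test).

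**Figure D1:**
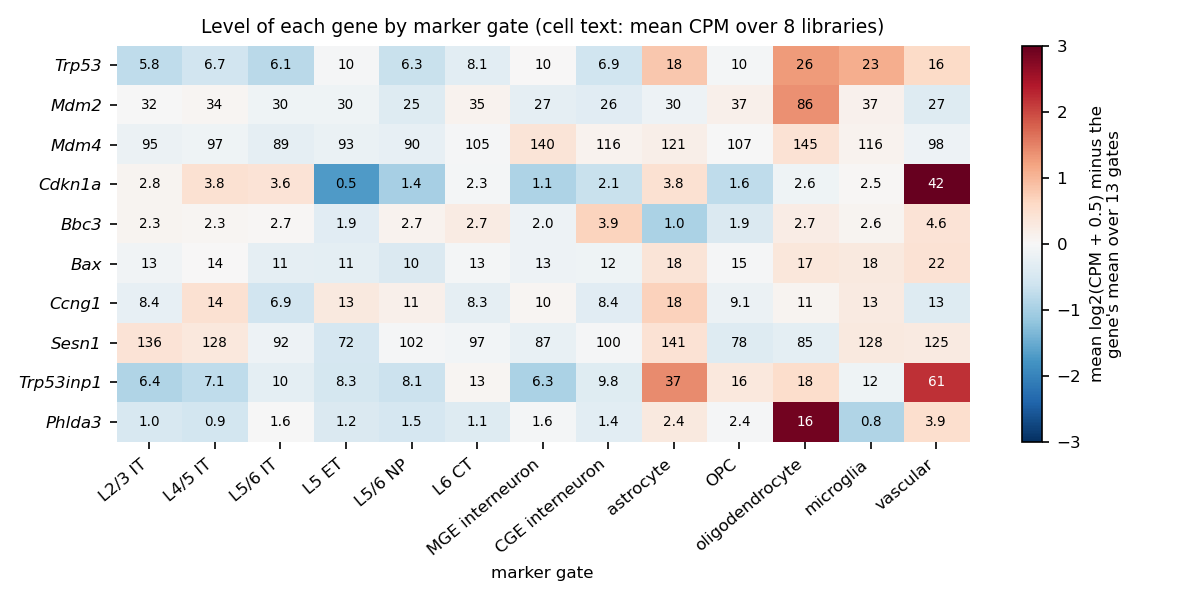
Mean level of the 10 genes (rows) in the 13 marker gates (columns). Colour is the mean log2(CPM + 0.5) minus that gene's mean over gates, and the text in each cell is the mean CPM over 8 libraries, so Cdkn1a stands out in vascular nuclei (42.4 CPM) and Mdm2 and Phlda3 in oligodendrocytes (85.5 and 15.8 CPM).

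Trp53 RNA was higher in oligodendrocytes, microglia and astrocytes than in each of the 8 neuronal gates, and in vascular nuclei than in 6 of them. Its level was 25.5 ± 5.05 CPM in oligodendrocytes (mean ± SD, n = 8 libraries), 22.7 ± 6.76 in microglia, 18.0 ± 2.31 in astrocytes and 16.1 ± 5.62 in vascular nuclei. In the 8 neuronal gates it lay between 5.77 ± 1.05 CPM in L2/3 IT neurons and 10.3 ± 1.60 in MGE interneurons. The lowest oligodendrocyte library (19.2 CPM) was above the highest L2/3 IT library (7.57 CPM), so these ranges did not overlap. Vascular nuclei were not resolved from MGE interneurons or L5 ET neurons, each exceeded in 6 of 8 libraries. OPC, with 10.2 ± 3.90 CPM, sat among the neurons, 1.35 log2 units under oligodendrocytes (SD 0.80; lower in 8 of 8 libraries, adjusted p = 0.0254 by the exact permutation test). The difference of 0.20 log2 units between oligodendrocytes and microglia was not resolved (SD 0.40; adjusted p = 0.343, same exact test). It turned with plain totals (-0.30) and with doublets kept (-0.0011).

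Mdm2, the ubiquitin ligase that targets p53 and is itself a p53 target, was highest in oligodendrocytes. Its level there was 85.5 ± 14.3 CPM, with a lowest library of 66.6, a median of 85.1 and a highest of 102 CPM. No other gate had a mean above the 37.1 ± 7.20 CPM of OPC, and oligodendrocytes exceeded each of the 12 other gates at adjusted p = 0.0254 (exact permutation test). The gap to OPC, the precursors of these cells, was 1.20 log2 units (SD 0.36; higher in 8 of 8 libraries). The remaining 11 gates spread only from 25.2 CPM in L5/6 NP neurons to 36.6 CPM in microglia. The 1427 Mdm2 UMIs of the oligodendrocyte gate came from 1123 of 4777 nuclei, with at most 6 in 1 nucleus. Thinned to 1000 UMIs per nucleus, 8.01% of 4416 oligodendrocyte, 5.12% of 2885 microglia-gated and 4.10% of 1877 OPC nuclei had one. With plain totals the next gate was microglia, and the gap was 0.73 log2 units.

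Mdm4, which binds p53 and blocks its activity without a strong ligase function of its own, had a UMI in 42.6% of all kept nuclei, or in 9.57% of nuclei thinned to 1000 UMIs. No gate is known to lack Mdm4, so there is no background share to set this against. Its mean ran from 88.9 ± 9.08 CPM in L5/6 IT neurons to 145 ± 10.7 CPM in oligodendrocytes, a 1.63-fold span. Oligodendrocytes were above 11 of 12 other gates, although with plain totals microglia ranked first, and MGE interneurons, with 140.4 ± 8.82 CPM, above 9. Those leading gates were not told apart (difference 0.04 log2 units, SD 0.08; adjusted p = 0.303, exact permutation test). The oligodendrocyte lead did pass with a stricter nucleus filter (0.17) and with a stricter gate (0.14), so this depends on the processing. The excitatory gates lay lower, at 88.9 to 105 CPM.

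Cdkn1a, which encodes the cell cycle inhibitor p21 and is the classic p53 target, was low in every gate but one. Vascular nuclei had 42.4 ± 21.1 CPM, with 34.6, 88.5, 23.5 and 38.2 CPM in the WT libraries and 49.7, 25.0, 49.4 and 30.01 CPM in those labelled Chd8het. The 12 other gates had means of 0.454 to 3.84 CPM, and the lowest vascular library stood above the highest library of any of them (9.68 CPM). The vascular gate was 3.34 log2 units above the next, L4/5 IT (SD 0.92; 8 of 8 libraries, adjusted p = 0.0254, exact permutation test). L5 ET neurons were lowest: 7 UMIs in all 8 libraries, of which 3 had none.

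The vascular signal sat in nuclei whose best vascular score was endothelial, that is, cells lining vessels marked by Cldn5, Flt1 and Pecam1. Of 122 Cdkn1a UMIs in 960 vascular nuclei, 114 were in the 393 endothelial-scored nuclei, or 139 CPM of plain totals. The 288 mural nuclei, which wrap vessels, had 9.93 CPM, and the 279 fibroblast-like nuclei 4.33 CPM. A Cdkn1a UMI was seen in 15.8% of endothelial-scored nuclei (exact 95% interval 12.3 to 19.8%, counting error only), with up to 13 in 1 nucleus, and in all 8 libraries. By comparison, 0.583% of microglia-gated nuclei of similar depth (median 1457 against 1714 UMIs) had one. Thinned to 1000 UMIs per nucleus, which left out shallower nuclei, the shares were 8.98% of 350 endothelial-scored and 0.331% of 2885 microglia-gated nuclei.

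Over the endothelial-scored nuclei of the 8 libraries pooled, Cdkn1a was higher where the mitochondrial share was higher, which was not compared within libraries. The 172 nuclei with over 1% mitochondrial UMIs had 215 CPM and a UMI in 26.7% (20.3 to 34.0%), and the 221 with at most 1% had 65.3 CPM and a UMI in 7.24% (4.20 to 11.5%). After thinning, the shares were 14.1% of 153 and 4.99% of 197 nuclei. Mitochondrial transcripts lie outside the nucleus, and the part of cytoplasmic RNA in the Cdkn1a level was not tested. With the stricter nucleus filter (1000 genes and 1% mitochondrial UMIs), 123 endothelial-scored nuclei were left, with 69.9 CPM and a Cdkn1a UMI in 8.94% (4.61% thinned). Over the whole vascular gate that filter left 22 Cdkn1a UMIs, or 20.4 CPM of pooled plain totals, against 3.803 CPM in astrocytes and 2.53 CPM in L4/5 IT neurons. They were unevenly spread, since 3 of 8 libraries had none and 1 had 9. The mean log2 lead over the next gate, then astrocytes, went from 3.34 to 0.21 and did not pass the test (adjusted p = 0.934, exact permutation test), which at these counts does not show that the vascular excess is absent.

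**Figure D2:**
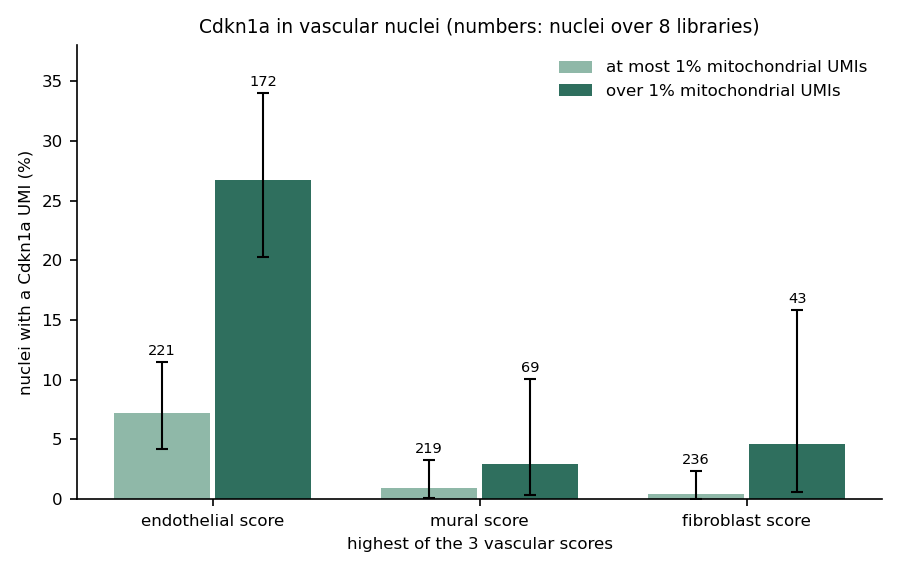
Share of vascular nuclei with a Cdkn1a UMI (y axis, %) by the highest vascular score (x axis) and by mitochondrial share (light, at most 1%; dark, over 1%), nuclei of 8 libraries pooled, with exact 95% intervals that cover counting error only. The endothelial-scored bars stand at 7.24% and 26.7%, and all 4 others at or below 4.65%.

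Trp53inp1, which encodes a nuclear protein that promotes p53 phosphorylation and autophagy, was highest in vascular nuclei and next in astrocytes. Vascular nuclei had 60.8 ± 20.4 CPM (lowest 32.2, median 65.4, highest 85.2) and astrocytes 36.9 ± 18.9 CPM (lowest 17.2, median 30.7, highest 70.2). These ranges overlapped between libraries, but within each of the 8 libraries the vascular level was the higher, by 0.78 log2 units on average (SD 0.30; adjusted p = 0.0254, exact permutation test). Oligodendrocytes (18.1 ± 4.16 CPM) and OPC (15.5 ± 3.36) followed, and the lowest gates were MGE interneurons (6.35 ± 2.20) and L2/3 IT neurons (6.40 ± 1.26). By subset it had 105 CPM of plain totals in fibroblast-like, 97.8 CPM in endothelial-scored and 41.7 CPM in mural nuclei, so its vascular level was not an endothelial one alone.

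Phlda3, a small protein that competes for membrane lipids and so restrains the kinase Akt, was highest in oligodendrocytes. Oligodendrocytes had 15.8 ± 6.44 CPM, with 18.3, 10.4, 16.8 and 9.60 CPM in the WT libraries and 23.5, 11.4, 26.2 and 10.5 CPM in those labelled Chd8het. All 4 single-indexed libraries (16.8 to 26.2 CPM) were above all 4 dual-indexed ones (9.60 to 11.4 CPM). The next gate, vascular nuclei, had 3.93 ± 3.16 CPM from 11 UMIs, and all 12 other gates were lower than oligodendrocytes at adjusted p = 0.0254 (exact permutation test). A Phlda3 UMI was found in 5.34% of oligodendrocyte nuclei (median 3154 UMIs), in 0.837% of the much deeper L2/3 IT nuclei (median 9540) and in 0.175% of microglia-gated nuclei. Thinned to 1000 UMIs, these shares were 1.62% of 4416, 0.091% of 10799 and 0.128% of 2885 nuclei. The closest gates after thinning were vascular nuclei (0.562% of 889) and OPC (0.347% of 1877).

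**Figure D3:**
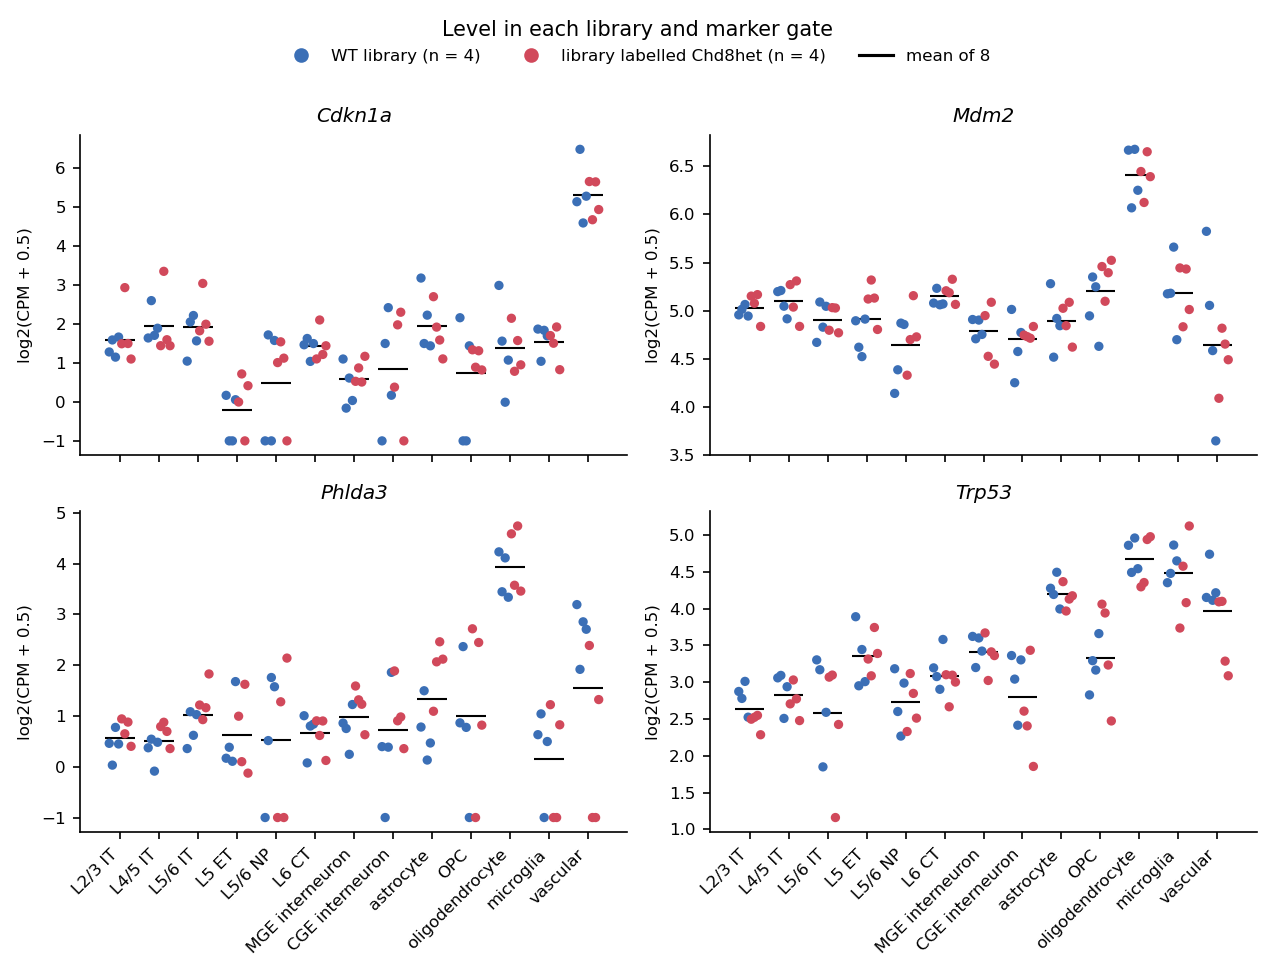
Level of Cdkn1a, Mdm2, Phlda3 and Trp53 as log2(CPM + 0.5) (y axis) in each of 8 libraries (points; blue WT, red labelled Chd8het) and 13 gates (x axis), with the mean of 8 as a line. The vascular points of Cdkn1a and the oligodendrocyte points of Mdm2 and Phlda3 stand above the points of every other gate. WT and Chd8het points overlap in every gate shown, except for Trp53 in vascular nuclei.

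Sesn1, a stress-response protein that lowers mTORC1 signalling, had a UMI in 42.8% of all kept nuclei (9.94% thinned to 1000 UMIs), and 48 of its 78 gate pairs differed, the most of the 10 genes. Astrocytes had 141 ± 28.5 CPM, L2/3 IT neurons 136 ± 14.3 and L4/5 IT neurons 128 ± 22.6 CPM, although with plain totals vascular nuclei ranked above astrocytes. Microglia (127.5 ± 31.0 CPM) were not resolved from L4/5 IT (adjusted p = 0.844, exact permutation test), and vascular nuclei had 124.6 ± 24.4 CPM. Thinned to 1000 UMIs, 16.1% of microglia-gated, 15.0% of vascular and 13.7% of astrocyte nuclei had a Sesn1 UMI. The thinned shares were 10.7% in L4/5 IT and 10.4% in L2/3 IT neurons. L5 ET neurons were lowest with 71.7 ± 8.00 CPM and were below 10 of 12 other gates. The 0.92 log2 gap between L2/3 IT and L5 ET, both excitatory, was seen in 8 of 8 libraries (SD 0.24; adjusted p = 0.0254, exact permutation test). Oligodendrocytes (84.6 ± 13.9 CPM), which led for Mdm2 and Phlda3, were among the lower gates for Sesn1.

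Ccng1, a cyclin that feeds back on Mdm2 through a phosphatase, was higher in L4/5 IT (14.2 ± 4.02 CPM) than in L2/3 IT neurons (8.36 ± 1.82), a gap of 0.70 log2 units in 8 of 8 libraries (SD 0.23; adjusted p = 0.0254, exact permutation test). Its highest mean was in astrocytes, 18.0 ± 9.87 CPM, where libraries ranged from 8.23 to 38.4 CPM, and its lowest in L5/6 IT neurons, 6.86 ± 2.63 CPM.

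Of the apoptosis genes, Bax differed in 13 of 78 gate pairs (16.7%) and Bbc3 in 6 of 78 (7.69%), against 37% of such comparisons over all genes, which are not matched for UMIs. Phlda3 (15 pairs) and Ccng1 (19) were close to Bax, so low counts of pairs were not particular to apoptosis genes. Bax, which perforates the mitochondrial outer membrane, ranged from 10.4 ± 4.93 CPM in L5/6 NP neurons to 22.0 ± 15.2 in vascular nuclei. The vascular lead over astrocytes was not resolved (0.0436 log2 units, SD 0.82; adjusted p = 0.844, exact permutation test), and with the stricter nucleus filter vascular nuclei were -0.94 log2 units from astrocytes. The lead over astrocytes also turned with doublets kept, and without the first WT female or the first male labelled Chd8het (-0.11 and -0.0966). With the stricter gate microglia ranked above vascular nuclei (-0.0192). Astrocytes (17.7 ± 3.72 CPM) were above 6 other gates. Bbc3, which encodes the BH3-only protein PUMA, was sparse, with 1217 UMIs in all kept nuclei and means of 1.01 to 4.63 CPM. Astrocytes (1.01 ± 0.674 CPM, 15 UMIs) were the lower gate in 5 of its 6 pairs that differed.

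For most of the 10 genes the mean over neuronal gates was below that over non-neuronal gates, for some only slightly. The mean over the 8 neuronal gates minus that over the 5 non-neuronal gates was -1.41 log2 units for Trp53inp1 (SD 0.37), -1.21 for Trp53 (SD 0.23), -1.11 for Cdkn1a (SD 0.77) and -0.89 for Phlda3 (SD 0.74). Smaller differences were found for Bax (-0.46), Mdm2 (-0.36), Mdm4 (-0.18) and Sesn1 (-0.10), and these 8 genes passed the exact permutation test at adjusted p of 0.0143 to 0.0462. Bbc3 (0.22, adjusted p = 0.141 in the same exact test) and Ccng1 (-0.15, adjusted p = 0.237) did not. The test called 67.6% of all 21546 genes, so passing it was common. Among all genes the differences ranked at percentiles 6.39 (Trp53inp1), 8.36 (Trp53), 9.45 (Cdkn1a), 12.3 (Phlda3) and 22.1 (Bax), while the other 5 lay between 25.4 (Mdm2) and 55.8 (Bbc3). For Cdkn1a, Phlda3 and Mdm2, 1 non-neuronal gate stood well above the others. Mean log2 Cdkn1a was 5.29 in vascular nuclei, 0.74 to 1.95 in the other non-neuronal gates and -0.21 to 1.96 in neuronal gates. Phlda3 had 3.94 in oligodendrocytes, 0.15 to 1.55 in the other non-neuronal gates and 0.50 to 1.03 in neuronal gates. Mdm2 had 6.41 in oligodendrocytes, 4.65 to 5.21 in the other non-neuronal gates and 4.65 to 5.15 in neuronal gates. With the stricter nucleus filter Cdkn1a (-0.42) and Bax (-0.22) did not pass, Bbc3 passed as higher in neurons (0.57) and Ccng1 turned to 0.21 without passing. With plain totals Ccng1 passed (-0.55) and Bbc3 turned to -0.10 without passing. Sesn1 did not pass in 7 of 8 and Phlda3 in 6 of 8 analyses with a library left out. Trp53, Mdm4, Bax and Trp53inp1 were lower in neurons in 8 of 8 libraries, which held for 22.4% of all 21546 genes, while 32.3% of genes were higher in neurons in 8 of 8. The median over all genes was 0.14 with TMM scaling and -0.15 with plain totals, a shift of -0.29 that should be read against the smaller differences.

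Some other genes had a profile over the 13 gates close to that of a member, by Pearson's r of mean log2 CPM among 4593 genes tested in every gate. The points share libraries and depth, and r is given as a description. The 2 closest were Elf2 (0.94) and Nfatc3 (0.94) for Trp53, Zfyve1 (0.95) and Itch (0.94) for Mdm2, and Rab22a (0.96) and Arid2 (0.95) for Bax. Cdkn1a was closest to Capns1 (0.90) and Chmp2a (0.88), Trp53inp1 to Ptgds (0.93) and Igsf8 (0.92), Phlda3 to Mtmr2 (0.94) and Rnf220 (0.94), and Sesn1 to Foxo3 (0.89) and Herc6 (0.78). Mdm4 was closest to Mcts1 (0.87) and Ubxn7 (0.87). For Ccng1 (Gm26917 0.75, Zswim6 0.74) and Bbc3 (Acsl1 0.77, Vps35 0.71) r was lower.

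Between genotypes, the targeted gene was looked at first. Chd8 stood at 79.8 ± 2.67 CPM in the 4 WT and 79.3 ± 5.34 CPM in the 4 libraries labelled Chd8het over all kept nuclei, a log2 change of -0.01 (SE 0.07; edgeR adjusted p = 1.00). Gene-level 3′ counts need not cover the altered part of a gene, so this neither checks nor contradicts the labels, and the groups below are as labelled.

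None of the 10 genes was called between genotypes. In all kept nuclei 0 of 10, and over the gates 0 of 90 tests of genes with enough counts, had an edgeR quasi-likelihood BH-adjusted p under 0.05. The background was the same: 0% of 21546 genes in all kept nuclei and 0% of 150842 gene and gate tests were called. At an unadjusted p under 0.05 there were 0 of 10 in all kept nuclei, where the background was 1.42%, and 1 of 90 (1.11%) over the gates, where it was 2.39%. DESeq2 called 0 of these tests and gave 0 at an unadjusted p under 0.05. When sex was replaced by 4 pair terms, formed from sex and replicate number, 0 were called and 3 of 90 (3.33%) had an unadjusted p under 0.05. The paired background was 0% called and 6.4% at an unadjusted p under 0.05 in all kept nuclei, and 0.0265% and 5.98% over the gates. The interaction of sex with genotype was called in 0 of the 100 tests, with 1 at an unadjusted p under 0.05. In simulated counts of this size, 100 genes were changed by 1 log2 unit and 100 by 2, and 58% and 89% were called in all kept nuclei. That many changed genes ease the BH cut, so these shares do not hold for a gene that changes alone.

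The intervals bound the change in all kept nuclei. For Mdm4 the log2 change was -0.05 (95% interval -0.18 to 0.09) and for Trp53 -0.11 (-0.35 to 0.13). Trp53 CPM was 8.70, 7.42, 7.99 and 7.24 in the WT libraries and 7.55, 7.04, 7.60 and 6.86 in those labelled Chd8het, which overlapped. Within the pairs of the same sex and number, Trp53 and Mdm4 were lower in Chd8het in 4 of 4, which held for 7.63% of all genes, and none of the 10 was higher in 4 of 4 (6.99% of all genes). An exact sign-flip test over 4 pairs cannot go below 0.125. Mdm2 (0.06, interval -0.19 to 0.30) and Sesn1 (-0.07, -0.34 to 0.20) had intervals within 0.35 log2 units of 0. They were wider for Trp53inp1 (-0.01, -0.38 to 0.36), Bbc3 (0.03, -0.41 to 0.46) and Ccng1 (-0.11, -0.65 to 0.42), and for Bax (-0.01, -0.64 to 0.62). With the pair terms the intervals were narrower, such as -0.27 to 0.24 for Bax, -0.30 to 0.06 for Ccng1, -0.19 to 0.04 for Sesn1 and -0.15 to 0.06 for Mdm4, and all 10 again included 0. Sums over all kept nuclei cannot tell apart fewer nuclei of a type and less RNA per nucleus.

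Cdkn1a, the readout most often used for p53 activity, had 2.48, 3.02, 1.91 and 2.12 CPM in the WT libraries and 2.42, 4.50, 2.16 and 1.79 CPM in those labelled Chd8het. The second male labelled Chd8het was the highest of all 8, and the other 7 overlapped. The log2 change was 0.15 (95% interval -0.35 to 0.65; edgeR adjusted p = 1.00), and -0.09 without that library. The same library was high in L2/3 IT neurons, with 7.12 CPM against 1.64 to 2.67 CPM in the other 7, in L4/5 IT neurons (9.68 against 2.21 to 5.55 CPM), in L5/6 IT neurons (7.71 against 1.56 to 4.14 CPM) and in L6 CT neurons (3.79 against 1.55 to 2.59 CPM). In vascular nuclei it had 25.0 CPM, within the range of the other 7. It also had the lowest share of nuclei in the 13 gates (56.4%, against 63.8 to 70.1%). Without it, the L2/3 IT change went from 0.49 to -0.06, the L4/5 IT change from 0.07 to -0.53 and the L6 CT change from 0.08 to -0.18. The vascular change, in the one gate where Cdkn1a was abundant, was -0.26 (SE 0.37; edgeR adjusted p = 0.999) and -0.0071 without that library. None of these was called.

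Phlda3 had the largest of the 10 changes in all kept nuclei, 0.31 (95% interval -0.21 to 0.83; edgeR adjusted p = 1.00). It was 0.14 without the first male and 0.18 without the first female labelled Chd8het, and 0.47 without the second female labelled Chd8het. Its CPM was 1.51, 1.17, 1.59 and 1.52 in the WT libraries and 2.25, 1.42, 2.18 and 1.33 in those labelled Chd8het. The 2 single-indexed libraries labelled Chd8het were above all others, and the dual-indexed ones overlapped WT.

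**Figure D4:**
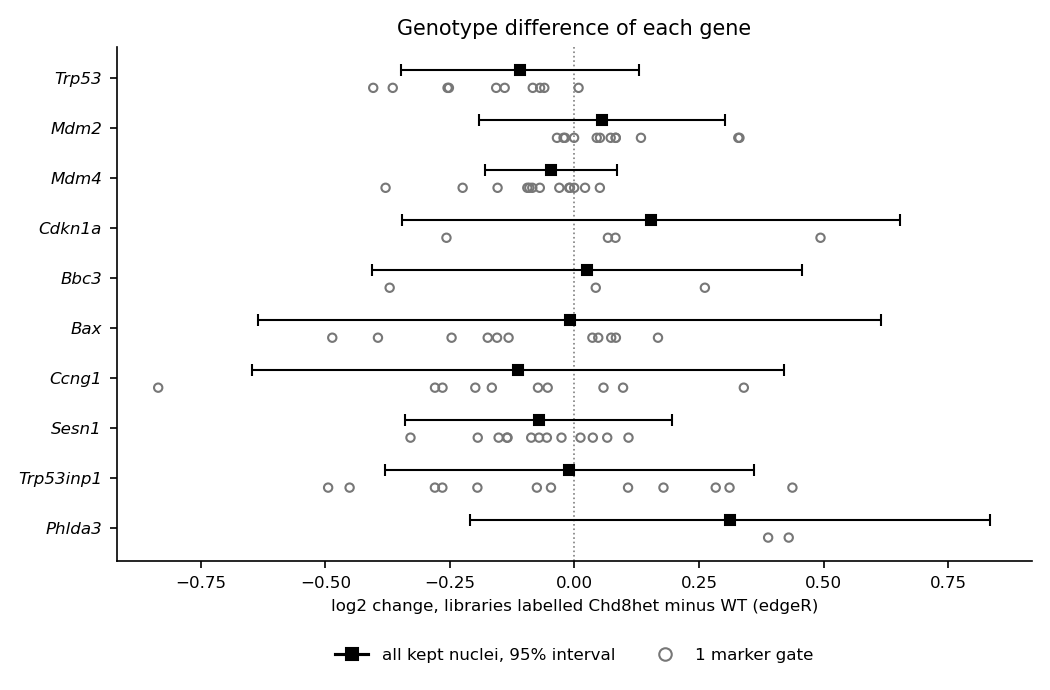
Log2 change of each gene, libraries labelled Chd8het minus WT, by edgeR (x axis): squares with 95% intervals are all kept nuclei, and open circles are single gates in which the gene had enough counts. All 10 intervals include 0, and the gate values lie between -0.84 for Ccng1 in L5/6 IT and 0.49 for Cdkn1a in L2/3 IT.

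Over the gates, 35 changes were positive and 55 negative, with a median of -0.05 against 0.0015 over all genes tested. The number of gates with enough counts ran from 13 for Mdm4 and Sesn1 to 2 for Phlda3, and Cdkn1a (4 gates), Bbc3 (3) and Phlda3 were tested mainly in the largest gates. In 3 of the 90 tests the 4 WT and 4 labelled Chd8het libraries did not overlap, all 3 with the lower values in Chd8het, and 0 were higher. The background over all genes was 0.915% lower and 0.995% higher over the gates, and in all kept nuclei 0.659% and 0.752%, where 0 of the 10 genes separated.

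The 3 separations concerned Mdm4 and Sesn1. Mdm4 in OPC had 108, 110, 115 and 127 CPM in WT and 100.2, 90.5, 105 and 97.3 CPM in Chd8het libraries, a log2 change of -0.22 (SE 0.13; edgeR adjusted p = 1.00). Mdm4 in vascular nuclei had 95.1, 144, 97.5 and 107 CPM against 87.6, 88.8, 83.3 and 84.0 CPM (-0.38, SE 0.22; adjusted p = 0.999). Sesn1 in CGE interneurons had 111, 104, 102 and 103 CPM against 102, 90.6, 101 and 88.2 CPM (-0.13, SE 0.12; adjusted p = 1.00), where the nearest libraries, 102.4 and 101.5 CPM, almost touched. With plain totals the genotypes overlapped for Sesn1 in CGE interneurons, but not for Mdm4 in either gate. Among gene and gate combinations with too few counts for the test, another 2 did not overlap. The background shares above cover tested combinations only, so there is none to set these 2 against. Trp53 in vascular nuclei, from 46 UMIs, had 17.3, 26.2, 16.81 and 18.1 CPM in WT and 16.56, 16.64, 9.26 and 8.00 CPM in Chd8het libraries. Bax in L5/6 NP neurons, from 71 UMIs, was the one with the higher values in Chd8het (9.11 to 21.8 against 5.57 to 8.64 CPM).

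The 1 of 90 tests with an unadjusted p under 0.05 was Ccng1 in L5/6 IT neurons. It had 9.38, 9.31, 10.4 and 6.14 CPM in WT and 5.47, 4.21, 6.95 and 3.05 CPM in Chd8het libraries, which overlapped. The log2 change was -0.84 (SE 0.37), from 99 UMIs, with an edgeR adjusted p = 1.00, or adjusted p = 0.605 with the pairs. In the paired model alone, Trp53 in L2/3 IT neurons (log2 change -0.36, edgeR adjusted p = 0.737) and Bax in MGE interneurons (-0.43, adjusted p = 0.74) also had an unadjusted p under 0.05. In all 3, each of the 4 pairs had the lower value in Chd8het. Over the gates that held for 14 of the 90 tests (15.6%), against 7.27% of all gene and gate tests, and the gates of 1 gene share their libraries. The reverse, higher in Chd8het in 4 of 4 pairs, held for 1 of 90 (1.11%, against 6.63%), which was Phlda3 in oligodendrocytes, its leading gate. Its log2 change there was 0.39 (SE 0.35; edgeR adjusted p = 1.00), or 0.36 with the pair terms (SE 0.19; adjusted p = 0.907).

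Other genes of the p53 network, taken from lists of 36 further targets and 26 regulators and partners, were not called either. In all kept nuclei 0 of 36 targets were called, 21 were higher and 15 lower, and the median log2 change was 0.08 against 0.0007 over all genes. Of the regulators 0 of 26 were called, 16 were higher and 10 lower (median 0.02). With the pair terms 5 of 36 targets (13.9%) had an unadjusted p under 0.05 in all kept nuclei, 3 of them higher, and 1 of 26 regulators (3.85%), against the background of 6.4%. Over the gates these were 18 of 248 target tests (7.26%), 12 of them higher, and 2 regulator tests (0.781%), against 5.98%. None was called there either, by edgeR with or without the pair terms. By the smallest unadjusted p, the targets and regulators leading upward were Fas, a death receptor (log2 change 0.69, SE 0.29), and Chek2, a DNA damage kinase (0.34, SE 0.18). Downward they were Plk2, a polo-like kinase (-0.15, SE 0.09), and Cdkn2a, the locus of Arf, which inhibits Mdm2 (-0.55, SE 0.33, from 73 UMIs). Each of these 4 had an edgeR adjusted p of 1.00.

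The difference between index types was larger than that between genotypes for several of the genes. In all kept nuclei Bax was 14.7 ± 0.593 CPM in the 4 single-indexed and 9.08 ± 1.45 CPM in the 4 dual-indexed libraries, and Ccng1 11.4 ± 0.658 against 7.59 ± 1.02 CPM. Sesn1 (107 against 87.9 CPM), Mdm2 (31.8 against 27.3) and Trp53 (7.96 against 7.14) were also higher in all 4 single-indexed libraries. For these 5 genes the exact permutation p was 0.0286, the smallest that 4 against 4 allow, and 0.0887 after BH adjustment over all genes. Of all genes 16.8% were higher in every single-indexed library and 15.4% lower, against 5 and 0 of the 10. Index type shares the replicate number in every group, so other properties of replicates 1 and 2 cannot be told apart from it. It was balanced over genotype, and with index type added to the model 0 genes were called and 3 tests had an unadjusted p under 0.05.

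**Figure D5:**
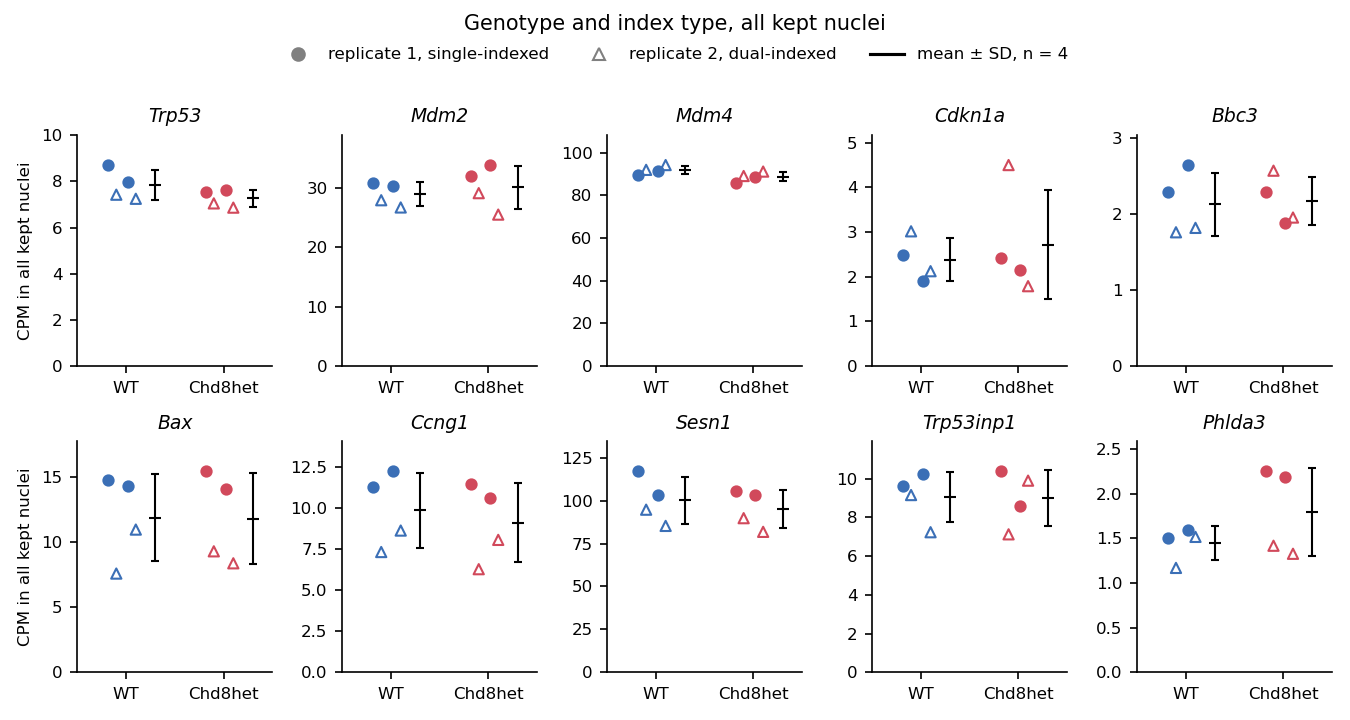
CPM of each gene in all kept nuclei (y axes, from 0) in the 4 WT (blue) and the 4 libraries labelled Chd8het (red), with single-indexed libraries as filled circles, dual-indexed ones as open triangles and mean ± SD in black. For Bax, Ccng1 and Sesn1 the circles lie above the triangles in both genotypes, while the genotypes themselves overlap for all 10 genes.

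All 10 genes are protein-coding in GENCODE M21 (GRCm38). Mdm4 (chr1:132959484-133030561) and Sesn1 (chr10:41809935-41908424), which gave the most UMIs, are also the longest, with spans of 71.1 and 98.5 kb, of which 79.2% and 96.0% are intronic in that annotation. Cdkn1a (chr17:29090976-29100727) spans 9.75 kb, Mdm2 (chr10:117688875-117710758) 21.9 kb, Trp53 (chr11:69580359-69591873) 11.5 kb and Phlda3 (chr1:135766119-135769136) 3.02 kb. Whether intron reads were counted is not given in the sources used here, and in nuclei it would weigh the long genes upward, which is a further reason not to compare levels between genes. Bax and Sesn1 each overlap 1 other annotated gene on the same strand, and Mdm4 and Cdkn1a 1 on the opposite strand, none of them in the count tables.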

How the data were processed

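The authors' deposited files held whole-number UMI counts per gene and barcode for 8 libraries. Per the submitters' processing notes, STAR 2.7.9a, STARsolo and Cell Ranger were used with mm10; their roles, the annotation and the use of intron reads are not given in the sources used here. Gene and barcode names were read as deposited (unit other).

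Nuclei with at least 500 genes and at most 5% mitochondrial UMIs were kept, and doublets predicted by Scrublet in scanpy 1.11.5 (expected rate 0.8% per 1000 barcodes, automatic threshold) were removed. Each nucleus was scored on fixed marker lists (mean of log-scaled marker levels, capped at the 0.9 quantile) and gated where the best score was at least 0.2 and led by 0.1. Gates with at least 30 nuclei in all 8 libraries were used. UMI counts were summed per library and gate and tested with edgeR 4.0.16 (quasi-likelihood F test, two-sided, minimum count 10, TMM, model of sex and genotype, BH over all genes of the gate, 95% intervals). Levels were compared as log2(CPM + 0.5) by exact sign-flip permutation over libraries, with BH over all genes tested. The plan had been to adjust over the 10 genes, which called the same 8 genes between neuronal and other gates, and over the neighbour tests, which called 0 in place of 6. The labels state pairs but not their members. Deviations from the group means of libraries with the same sex and number correlated at 0.05 to 0.61, over 0.1 for all 4 pairs in 13 of 14 sums of nuclei (not L5/6 NP), so these were used as pairs in the paired fit. Such libraries also share sex and index type. Libraries of the same index type but other sex correlated at -0.05 to 0.41 (median 0.17, against 0.35 for the pairs used). The correlation therefore does not show which libraries share a litter. Alternatives were a pair term, an index term, no sex term, DESeq2 1.42.0 and its size factors, no count filter, doublets kept, a stricter nucleus filter (1000 genes, 1% mitochondrial), a gate lead of 0.2, plain totals, a pseudocount of 1 and leaving out each library. Analyses added after seeing the data were the test of all gate pairs, the index type comparison, and the separation of vascular nuclei by subset and by mitochondrial share. Shares after thinning are expected values for 1000 UMIs drawn per nucleus. The edgeR step was tested on simulated data. The genes, lists and rules were chosen with earlier results of these data known. All 10 genes are named, with the 2 most alike genes for each, any network gene called or among the 2 of smallest p in each direction in all kept nuclei, and each gene and gate with an unadjusted p under 0.05 in the main or paired fit or with genotypes that do not overlap; 2 such combinations under the count minimum are given as values. Each animal gave 1 library. Depth is the summed UMI count; a gene of few UMIs in a gate has a wide interval.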

Additional observations from a re-analysis of the deposited data

Results flagged for a closer look

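In groups of 4 libraries of 1 genotype, 8 of 200 values of a gene and gate (4%) stood apart from the other 3 by more than Dixon's 95% limit, and chance gives about 1 in 20. Cdkn1a in the second male labelled Chd8het accounted for 2 of them: 7.12 CPM in L2/3 IT neurons (other 3 libraries 1.64 to 2.32) and 9.68 CPM in L4/5 IT neurons (2.21 to 2.52). The same library had 4.50 CPM over all kept nuclei, the highest of 8. Mdm4 accounted for 3: 83.1 CPM in L5/6 NP neurons of the first male labelled Chd8het (others 94.4 to 96.3), 103 CPM in L6 CT neurons of the first WT male (109.5 to 111) and 139 CPM in microglia of the second WT female (108 to 112). The others were Mdm2 in L6 CT neurons of the second WT male (37.1 CPM, others 32.9 to 33.3), Sesn1 in CGE interneurons of the first WT male (111 CPM, others 102 to 104) and Trp53inp1 in OPC of the first WT female (21.8 CPM, others 13.2 to 14.4). No gene and gate differed in its genotype change between the sexes after adjustment.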

How the results depend on the processing

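No gene was called between genotypes under any of the 17 alternatives. With the replicate block (a term for each of the 4 pairs of the same sex and replicate number), 0 tests were called and 3 had an unadjusted p under 0.05, against 1 without it. That count was 3 with index type added, 0 with DESeq2, 2 with no count filter and 0 to 3 with a library left out. The block changed no call.

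With a library left out, log2 changes in all kept nuclei ranged from -0.21 to 0.17 for Bax, -0.0929 to 0.19 for Bbc3, -0.32 to 0.0328 for Ccng1, -0.0907 to 0.28 for Cdkn1a, -0.034 to 0.13 for Mdm2, -0.16 to 0.002 for Sesn1 and -0.12 to 0.11 for Trp53inp1, each crossing 0, and from 0.14 to 0.47 for Phlda3. Cdkn1a crossed it only without the second male labelled Chd8het.

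Neuronal minus non-neuronal, plain totals gave -0.10 for Bbc3 (reversed) and -0.55 for Ccng1 (now past the test). The stricter nucleus filter gave -0.42 for Cdkn1a and -0.22 for Bax (no longer past it), 0.57 for Bbc3 (now past it) and 0.21 for Ccng1 (reversed). With a library left out the values were -1.06 to -0.77 for Phlda3, -0.12 to -0.0641 for Sesn1 and 0.18 to 0.33 for Bbc3, which passed without the second WT male. Of these, 6 and 7 of 8 omissions lost the test for Phlda3 and Sesn1, where 7 libraries allow a smallest p of 0.0156. Adjustment over the 10 genes alone called the same 8 genes.

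The highest gate minus the next turned with plain totals for Trp53 (-0.30), Mdm4 (-0.18), Bbc3 (-0.13) and Sesn1 (-0.27), with doublets kept for Trp53 (-0.0011) and Bax (-0.0282), with the stricter nucleus filter for Bax (-0.94) and with the stricter gate for Bax (-0.0192). The lead of Mdm4 passed the test with the stricter filter (0.17) and gate (0.14), and that of Cdkn1a fell to 0.21 with the stricter filter; the cause was not tested. With a library left out it ranged from -0.11 to 0.22 for Bax, -0.21 to 0.46 for Bbc3 and -0.0062 to 0.0795 for Sesn1. Mdm2, Cdkn1a, Phlda3, Trp53inp1 and Ccng1 kept the same leading gate in every alternative run. The share of gate pairs that differed was 30.4% to 32.8% with a library left out (32.2% to 33.1% of all genes) and 46.3% with plain totals (36.6% of all genes).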
